A study of Rattus norvegicus with 6 samples.

Results

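Integrins are receptors made of 1 alpha and 1 beta chain that hold cells to the extracellular matrix or to other cells. The beta-1 chain, ITGB1, pairs with many alpha chains and carries receptors for laminin and fibronectin, ITGAV forms receptors for vitronectin and latent TGF-beta, and the beta-2 chain, ITGB2, is restricted to leukocytes, microglia included. VCAM1 and ICAM1 are immunoglobulin-type adhesion molecules on the opposite cell surface, VCAM1 as the partner of ITGA4 with ITGB1 and ICAM1 as the partner of ITGAL or ITGAM with ITGB2. Both are known in spinal cord and brain as cytokine-inducible genes of endothelium and reactive glia. The 10 genes described here, 8 integrin chains with VCAM1 and ICAM1, were chosen by name, and all 10 of 10 were found among the 17648 genes of the matrix and among the 8495 genes tested.

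RNA was sequenced from cultures of spinal cord neurons from Sprague-Dawley rats of neonatal age in 6 libraries. The Glu + siR-Con group (3 libraries) had a control transfection, and the Glu + siR-GAL3 group (3 libraries) was transfected against galectin-3 (GAL3). According to the methods both groups were exposed to 10 μM glutamate for 1 h after 3 days of culture and then kept for 16 h in medium without glutamate, and the series text likewise calls all libraries glutamate-treated. The sample labels instead give saline for the siR-Con libraries and call the siR-GAL3 transfection a knockout. The groups were taken as siR-Con and siR-GAL3, and if saline were right, glutamate and siRNA could not be told apart. Cytosine arabinoside had been added to the cultures to enrich neurons. No label states whether the libraries of a group came from separate cultures, so that the p-values measure the spread between these libraries only, which may be technical. The methods name 1 siRNA against GAL3.

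All values are expression values on a linear scale that the authors derived from FPKM, which is scaled to transcript length, then cleared of batch effects, standardized and corrected for differences within groups. Their depth is unknown. Series of 3 values follow the order of replicates 1, 2 and 3. LGALS3, the gene of GAL3, was listed at 77.4, 54.4 and 62.4 across the siR-Con libraries and at -1.64, 32.3 and 18.5 across the siR-GAL3 libraries, without overlap. Exactly equal values tie libraries together across the groups. Set 1 held replicate 1 of each group, set 2 held replicate 3 of each group and the siR-Con replicate 2, and siR-GAL3 replicate 2 was by itself (set 3). Libraries within a set had 1312 to 1463 nonzero values in common, and libraries of different sets had 238 to 264. The cultures were not neurons alone. Of 13 neuronal markers listed, 8 had a mean under 1, RBFOX3 (0.300 to 0.429 over the libraries) among them, and MAP2 was the highest at 13.1 to 19.0, while all 8 astrocyte and all 8 oligodendrocyte markers could be tested, GFAP at 514.8 to 757.7 and MBP at 628.6 to 918.5. In such bulk RNA, a change in the number of cells of a type and a change of RNA per cell cannot be told apart.

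In Glu + siR-GAL3 the adhesion molecule VCAM1 and the leukocyte chain ITGB2 were higher, and they were the 2 of 10 genes with an unadjusted p under 0.05 in limma, against 8.66% of all genes tested. VCAM1 was 26.1% and ITGB2 33.2% above the siR-Con mean. Of the other 8, ITGA5 and ICAM1 had higher means and ITGB1, ITGB5, ITGB8, ITGAV, ITGA6 and ITGA7 had lower means, and each of their intervals included 0. No gene of the 10 passed 0.05 in limma after Benjamini-Hochberg adjustment across the whole table, and neither did any other of the 8495, of which 736 had an unadjusted p under 0.05. The values of 3 of the 10 genes, VCAM1, ITGAV and ITGA7, did not overlap between the groups, against 20.5% of all genes. VCAM1 was the 1 gene wholly higher and ITGAV and ITGA7 the 2 wholly lower, against 10.3% of all genes in each direction. The median log2 fold change of the 10 genes was -0.08, beside -1.19e-05 over all genes tested, and it was -0.03 without siR-GAL3 replicate 2 and -0.04 when blocked on the library set. Those fits gave 167 and 106 genes of the whole table with an adjusted p under 0.05 (limma), none of the 10 genes among them. The 2 fits are not separate checks. In the blocked fit siR-GAL3 replicate 2, the only library of its set, adds nothing to the group difference.

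**Figure D1:**
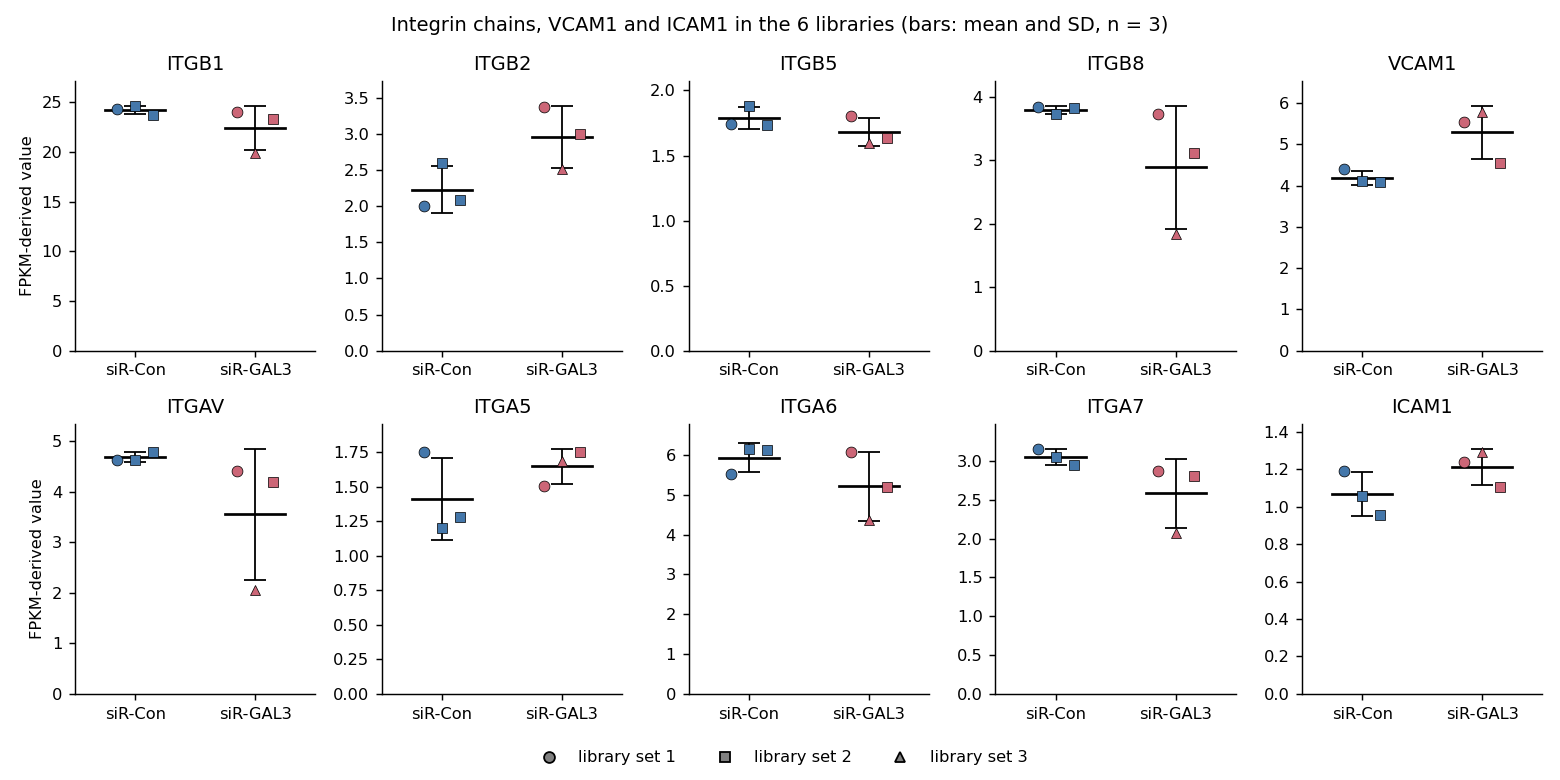
Expression values (FPKM-derived, linear scale from 0) of the 10 genes in each library, siR-Con in blue and siR-GAL3 in red, with the marker shape giving the library set and the bars the mean and SD of 3 libraries. VCAM1 lies higher in all 3 siR-GAL3 libraries, and for ITGAV and ITGB8 the siR-GAL3 library of set 3 (replicate 2) lies far below the other 5.

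The genes differed widely in level. On the length-scaled values, ITGB1 was by far the most abundant, with a mean of 23.3 over the 6 libraries, higher than 95.8% of the genes tested. ITGA6, VCAM1, ITGAV and ITGB8 followed, with means of 5.58, 4.74, 4.12 and 3.35. ITGA7 and ITGB2 had means of 2.82 and 2.59, ITGB5 and ITGA5 of 1.73 and 1.53, and ICAM1 was the lowest at 1.14, above only 5.50% of the genes tested. In the siR-Con libraries, neighbours in the order of their own means, in which ITGAV precedes VCAM1, did not overlap in range, except ITGB5 and ITGA5. The gaps were narrow from ITGB2 (lowest 2.00) to ITGB5 (highest 1.88) and from ITGA5 (lowest 1.20) to ICAM1 (highest 1.19), less than the ranges of ITGB2 and ITGA5 themselves. Across all 6 libraries the ranges of ITGA6, ITGAV and VCAM1 overlapped. ITGB1 supplied between 73.0% and 77.0% of the summed value of the 4 beta chains among the 10 genes in every library. That sum leaves out ITGB4, whose mean of 9.41 over the 6 libraries was above those of ITGB2, ITGB5 and ITGB8. The value of ITGB1 was 1.57 to 1.95 times the sum of ITGAV, ITGA5, ITGA6 and ITGA7, the highest ratio being that of siR-GAL3 replicate 2.

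VCAM1, which tethers leukocytes that carry ITGA4 with ITGB1, was 4.39, 4.11 and 4.09 across the siR-Con libraries and 5.55, 5.78 and 4.55 across the siR-GAL3 libraries. Every siR-GAL3 value lay above every siR-Con value, and the smallest gap was between siR-GAL3 replicate 3 and siR-Con replicate 1. The means were 4.20 ± 0.171 and 5.29 ± 0.652 (SD, n = 3 each). This gave a log2 fold change of 0.27 (limma, standard error 0.09, 95% interval 0.05 to 0.49, unadjusted p = 0.0212, adjusted p = 0.499), and the exact permutation test gave a two-sided p of 0.1, the smallest that 3 against 3 allow. Within the library sets VCAM1 was higher by 1.15 in set 1 and by 0.450 in set 2. Blocking on the library set gave a log2 fold change of 0.19 (limma, unadjusted p = 0.0172). The p was 0.0674 without siR-Con replicate 2, 0.0692 without siR-Con replicate 3 and 0.0646 without siR-GAL3 replicate 1, with log2 fold changes of 0.26, 0.26 and 0.24.

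ICAM1, the ligand of the ITGB2 integrins, was 1.19, 1.06 and 0.958 across the siR-Con libraries and 1.24, 1.30 and 1.11 across the siR-GAL3 libraries. The groups overlapped, since siR-GAL3 replicate 3 lay below siR-Con replicate 1. Its log2 fold change was 0.10 (95% interval -0.06 to 0.26, limma, unadjusted p = 0.196), and within the sets it was higher by 0.0464 and 0.0971. VCAM1 exceeded ICAM1 in every library, by a ratio of 3.69 to 4.27 in siR-Con and of 4.11 to 4.48 in siR-GAL3.

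The 250 bases before the annotated start of the rat Vcam1 and Icam1 genes are shown because cytokines are known to induce both genes through elements of the proximal promoter. They are RefSeq sequences of build GRCr8, Vcam1 on the minus strand at chr2:206742784-206743033 and Icam1 on the plus strand at chr8:27829595-27829844, and the build behind the expression values is not given in the sources used here. Capitals mark letters that match the NF-κB consensus, the gamma-activated sequence (TTCNNNGAA), the interferon-stimulated response element or the TATA letters (TATAAA), each searched on both strands.
Vcam1: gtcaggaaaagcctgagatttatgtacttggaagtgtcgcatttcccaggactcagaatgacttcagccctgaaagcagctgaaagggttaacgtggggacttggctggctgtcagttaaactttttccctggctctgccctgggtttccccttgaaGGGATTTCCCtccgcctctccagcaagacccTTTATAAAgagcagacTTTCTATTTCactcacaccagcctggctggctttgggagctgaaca
Icam1: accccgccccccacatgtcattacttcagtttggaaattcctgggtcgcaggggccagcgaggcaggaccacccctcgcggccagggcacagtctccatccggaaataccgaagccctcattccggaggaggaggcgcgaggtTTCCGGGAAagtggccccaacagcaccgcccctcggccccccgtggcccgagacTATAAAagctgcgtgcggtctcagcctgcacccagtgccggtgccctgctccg
The Vcam1 window held an NF-κB match that starts 93 bases before the gene start, 2 TATA matches on opposite strands that overlap, the first starting 62 bases before it, and a match to the interferon-stimulated response element at 46 bases. The Icam1 window held a match to the gamma-activated sequence at 107 bases and TATA letters at 53 bases. Only full matches were marked. The letters tggaaattcc in the Icam1 window and gggtttcccc in the Vcam1 window come close to the NF-κB consensus but were not counted. A window without a full match may therefore still hold a variant element. Among 33469 rat promoter windows of this length, 3.54% held the NF-κB consensus, 3.41% the interferon-stimulated response element, 7.67% the gamma-activated sequence and 12.9% the TATA letters. Promoter windows were matched for 7 of the 10 genes, without Itgb2, Itga6 and Itga7. Among the 5 integrin windows only that of Itga5 held any of these letters, NF-κB matches on both strands that overlap and start at 180 and 179 bases, and a gamma-activated sequence at 196 bases. The windows also differed in base composition. Itgb1, Itgb5 and Itgav had 71.2%, 74.4% and 72.0% G and C with 28, 33 and 21 CpG pairs. Icam1 had 66.0% with 19 CpG pairs, and Itgb8 and Itga5 had 56.4% and 55.6% with 11 each. Vcam1 had 50.4% with 3 CpG pairs, beside medians of 51.2% and 5 over all windows. A match describes letters and no binding was measured.

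Of 24 genes of NF-κB and cytokine signalling, which acts on VCAM1 and ICAM1 in many cells, 11 had a mean of at least 1. In Glu + siR-GAL3, 8 were higher and 3 lower, 3 and 1 of them with an unadjusted p under 0.05 in limma (4.41% and 4.25% of all genes), and their median log2 fold change was 0.09, or 0.04 without siR-GAL3 replicate 2. IFNGR1, a chain of the interferon-gamma receptor, had a log2 fold change of 0.32 (limma, unadjusted p = 0.00570) and IL1R1, the interleukin-1 receptor, had -0.21. TNFRSF1A was the most abundant, at 10.9 to 13.1, with -0.12. TNF, IL1B, IL6, CCL5 and PTGS2 had means under 0.1. Endothelium is a known source of VCAM1 and ICAM1, and all 8 of its markers listed had means under 1, CDH5 being the highest at 0.783 to 0.953, and TEK, FLT1 and VWF under 0.1. Their summed value was 1.65 to 1.85 in siR-Con and 1.65 to 2.00 in siR-GAL3.

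ITGB2 was 2.00, 2.60 and 2.08 across the siR-Con libraries and 3.37, 2.52 and 2.99 across the siR-GAL3 libraries. The groups overlapped at a single point, siR-GAL3 replicate 2, which lay just below siR-Con replicate 2. The means were 2.22 ± 0.325 and 2.96 ± 0.429 (SD, n = 3 each), and the log2 fold change was 0.30 (standard error 0.11, 95% interval 0.04 to 0.55, limma, unadjusted p = 0.0301, adjusted p = 0.534). The exact permutation p was 0.2. ITGB2 was higher by 1.38 in set 1 and by 0.656 in set 2, and blocking on the set gave 0.38 (limma, unadjusted p = 0.00555, adjusted p = 0.156). The unadjusted p in limma was above 0.05 with median-ratio scaling (0.0551), and it was 0.103 without siR-Con replicate 1, 0.0952 without siR-Con replicate 3, 0.0940 without siR-GAL3 replicate 1 and 0.0740 without siR-GAL3 replicate 3, with log2 fold changes of 0.25, 0.27, 0.22 and 0.29. Without siR-GAL3 replicate 2 the groups did not overlap and the log2 fold change was 0.38 (limma, unadjusted p = 0.00245).

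ITGB2 reaches the cell surface only with an alpha chain. ITGAL, which forms the lymphocyte and microglial ICAM1 receptor, was 1.44, 1.27 and 1.35 in siR-Con and 2.48, 1.70 and 2.23 in siR-GAL3, with no overlap and a log2 fold change of 0.41 (limma, unadjusted p = 0.00525, adjusted p = 0.305). ITGAM, the alpha chain of the complement receptor of microglia, was 1.63, 1.87 and 1.55 in siR-Con and 3.07, 1.92 and 2.39 in siR-GAL3, with no overlap and 0.36 (limma, unadjusted p = 0.0244). The row of ITGAD held the same 6 values as ITGAM, so that the signal of the 2 neighbouring paralogs cannot be told apart. ITGAX, the remaining partner, was 1.89, 1.72 and 1.62 against 1.73, 1.19 and 1.92, a log2 fold change of -0.08 with overlapping groups, whose means differed by 4.88% in the other direction without siR-GAL3 replicate 2. ITGA4, the receptor chain for VCAM1, was listed at 0.110 to 0.269 and ITGB3, a partner of ITGAV, at 0.172 to 0.605, both too low to be tested.

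**Figure D2:**
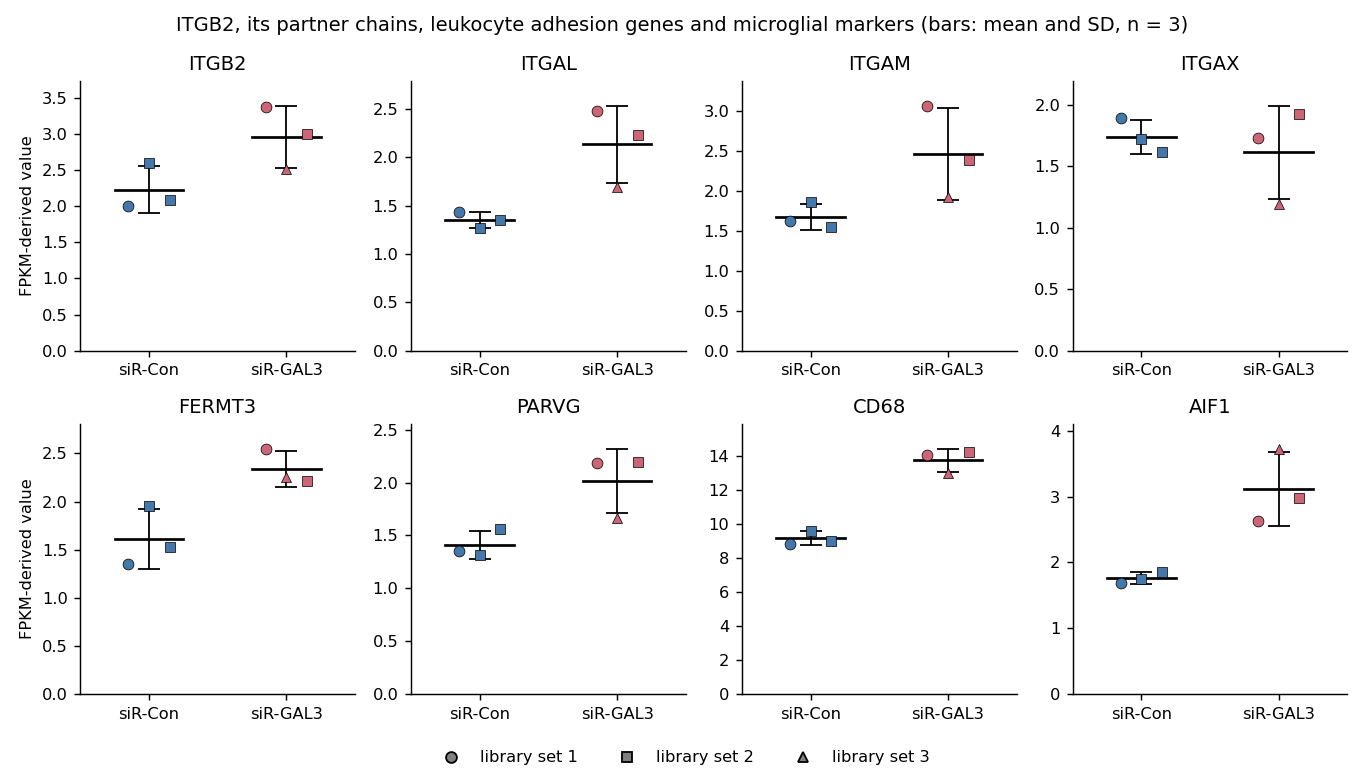
Expression values (FPKM-derived, linear scale from 0) of ITGB2, the partner chains ITGAL, ITGAM and ITGAX, the leukocyte adhesion genes FERMT3 and PARVG and the microglial markers CD68 and AIF1, with marker shapes for library sets and bars for the mean and SD of 3 libraries. ITGAL, ITGAM, FERMT3, PARVG, CD68 and AIF1 are higher in every siR-GAL3 library than in any siR-Con library, whereas ITGB2 overlaps in 1 library and ITGAX overlaps broadly.

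Microglial markers were mostly higher alongside ITGB2. Of the 12 markers listed, 11 were tested and none had a mean under 0.1. Of the 11, 10 were higher and 4 had an unadjusted p under 0.05 in limma, all 4 higher (4.41% of all genes). Their summed value was 122.2 to 146.4 in siR-Con and 153.5 to 173.3 in siR-GAL3. Their median log2 fold change was 0.11, and 0.23 without siR-GAL3 replicate 2. In that fit 9 of the 11 were higher, 5 of them at an unadjusted p under 0.05 in limma. Over all genes that fit had 16.3% under 0.05 in either direction. CD68, a lysosomal protein of phagocytes, was 9.15 ± 0.412 in siR-Con and 13.8 ± 0.671 in siR-GAL3 (SD, n = 3 each), and AIF1, an actin-binding protein of microglia, was 1.76 ± 0.0883 and 3.12 ± 0.558. C1QC, a complement chain made by microglia, had a log2 fold change of 0.30. CSF1R, CX3CR1 and P2RY12, receptors that define resting microglia and were picked after their values were seen, had log2 fold changes of 0.08, 0.02 and 0.02 over all 6 libraries. Without siR-GAL3 replicate 2 their siR-GAL3 means lay 23.0%, 20.8% and 8.53% above the siR-Con means. The part of the microglial RNA in the ITGB2 result was not tested. Blood leukocyte markers were near 0 but also higher, with sums of 0.0976 to 0.232 in siR-Con and 0.263 to 0.381 in siR-GAL3, and their part in the ITGB2 result was not tested. The highest was CD8A, at 0.117 ± 0.0569 in siR-Con and 0.290 ± 0.0584 in siR-GAL3 (SD, n = 3 each), and CD79A, S100A8, S100A9 and MPO had means under 0.1.

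ITGAV and ITGB8, the chains of the receptor that releases active TGF-beta, had the most negative estimates among the 10 genes, and both rested on 1 library. ITGAV was 4.63, 4.63 and 4.79 across the siR-Con libraries and 4.40, 2.06 and 4.19 across the siR-GAL3 libraries. All 3 siR-GAL3 values lay below the siR-Con values, siR-GAL3 replicates 1 and 3 by little and replicate 2 at 48.0% of the mean of the other siR-GAL3 libraries. Its mean in siR-GAL3 differed from siR-Con by -24.2%, with a log2 fold change of -0.37 (95% interval -0.86 to 0.13, limma, unadjusted p = 0.124), and the exact permutation p was 0.1. Without siR-GAL3 replicate 2 the difference was -8.24% and the log2 fold change was -0.10 (95% interval -0.21 to 0.01, limma, unadjusted p = 0.0688). Without siR-GAL3 replicate 1 it was -0.51 (limma, unadjusted p = 0.0496).

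ITGB8 was 3.84, 3.72 and 3.83 across the siR-Con libraries and 3.73, 1.83 and 3.12 across the siR-GAL3 libraries. The siR-Con values lay close together, siR-GAL3 replicate 1 overlapped with them and replicate 2 lay at 53.5% of the other siR-GAL3 libraries. The log2 fold change of -0.33 (95% interval -0.75 to 0.09, limma, unadjusted p = 0.103) became -0.12 without siR-GAL3 replicate 2 and -0.49 (limma, unadjusted p = 0.0198) without siR-GAL3 replicate 1. The ratio of ITGAV to ITGB8 was 1.21 to 1.25 in siR-Con and 1.12 to 1.34 in siR-GAL3. Over all 6 libraries the ratio varied less than the values of the chains, which rested on siR-GAL3 replicate 2, where both were low. Within siR-Con the ratio was about as variable as the values. ITGB5, the beta chain of a vitronectin receptor with ITGAV, was 1.74 to 1.88 in siR-Con and 1.60 to 1.80 in siR-GAL3, a log2 fold change of -0.06 (95% interval -0.21 to 0.09).

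**Figure D3:**
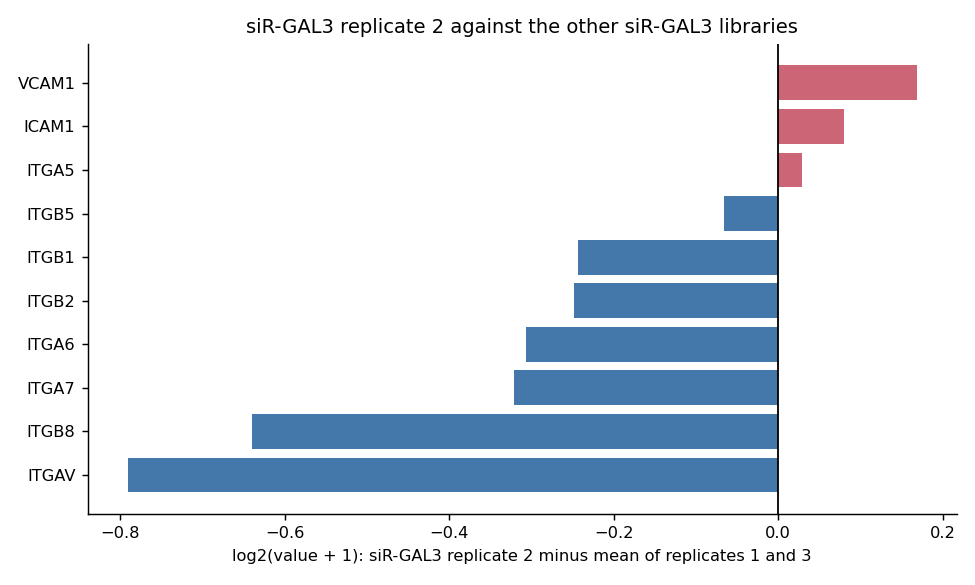
Difference in log2(value + 1) between siR-GAL3 replicate 2 and the mean of siR-GAL3 replicates 1 and 3 for each gene, with genes lower in replicate 2 in blue and higher in red. ITGAV (-0.79) and ITGB8 (-0.64) are the lowest, and VCAM1 (0.17) is the highest.

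The library siR-GAL3 replicate 2 was the lowest of the 6 for 6 of the 10 genes, ITGB1, ITGB5, ITGB8, ITGAV, ITGA6 and ITGA7, and the highest for VCAM1 and ICAM1. Over all genes tested it was the lowest for 35.1% and the highest for 41.5%. On the log2 scale it lay 0.79 below the other siR-GAL3 libraries for ITGAV, a difference of -0.79 that 2.61% of all genes reached, and for ITGB8 the difference was -0.64, which 4.73% reached. This library has no control in its set.

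ITGB1 and the laminin and fibronectin receptor chains ITGA6, ITGA7 and ITGA5 gave small differences. ITGB4, a further partner of ITGA6 that is not among the 10 genes, had a log2 fold change of -0.34 and is described below. ITGB1 was 24.3, 24.7 and 23.8 across the siR-Con libraries and 24.1, 19.9 and 23.4 across the siR-GAL3 libraries. Apart from replicate 2 the siR-GAL3 values lay within or just under the siR-Con range. Its log2 fold change was -0.11 (95% interval -0.32 to 0.09, limma, unadjusted p = 0.240), and -0.03 (-0.14 to 0.08) without that library. ITGA6, a laminin receptor chain of glia and neurons, was 5.52, 6.16 and 6.13 in siR-Con and 6.08, 4.36 and 5.20 in siR-GAL3, with a log2 fold change of -0.17 (95% interval -0.43 to 0.10), and it was -0.27 (limma, unadjusted p = 0.0352) without siR-GAL3 replicate 1 and -0.06 (limma, unadjusted p = 0.401) without siR-GAL3 replicate 2. The sets disagreed in direction, with 0.559 higher in set 1 and a difference of -0.939 in set 2. ITGA7, another laminin receptor chain, was 3.16, 3.05 and 2.95 in siR-Con and 2.87, 2.07 and 2.80 in siR-GAL3. Its groups did not overlap, and the log2 fold change was -0.19 (95% interval -0.42 to 0.05, limma, unadjusted p = 0.108; exact permutation p = 0.1), or -0.08 without siR-GAL3 replicate 2. ITGA5, the fibronectin receptor chain, was 1.75, 1.20 and 1.28 in siR-Con and 1.51, 1.68 and 1.76 in siR-GAL3, so siR-Con replicate 1 lay apart from the other controls and within the siR-GAL3 range. Its log2 fold change was 0.14 (95% interval -0.09 to 0.37), and it was 0.24 (limma, unadjusted p = 0.0235) without siR-Con replicate 1 and 0.08 (limma, unadjusted p = 0.484) without siR-Con replicate 2.

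**Figure D4:**
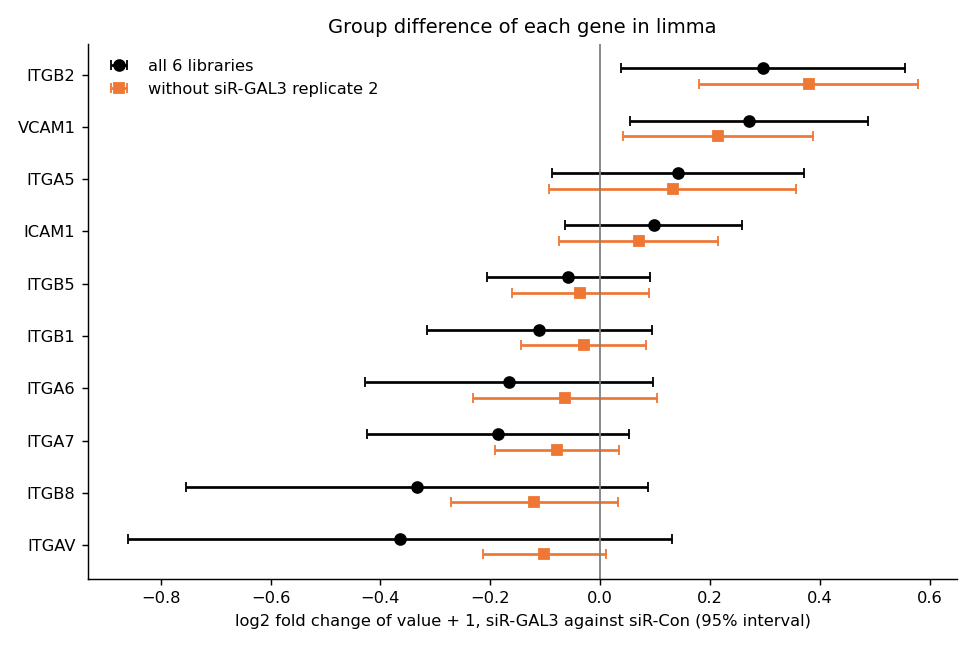
Log2 fold change of value + 1 in siR-GAL3 against siR-Con with the 95% interval from limma, for all 6 libraries (black) and without siR-GAL3 replicate 2 (orange). The intervals of VCAM1 and ITGB2 lie above 0 in both fits, and the estimates of ITGAV and ITGB8 move from -0.37 and -0.33 to -0.10 and -0.12.

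Within the library sets, 4 genes were lower in siR-GAL3 in both sets (ITGB1, ITGB8, ITGAV and ITGA7), 3 were higher in both (ITGB2, VCAM1 and ICAM1) and 3 differed in direction (ITGB5, ITGA5 and ITGA6). Over all genes, 54% had the same direction in both sets. With the set as a block, in which siR-GAL3 replicate 2 has no partner, VCAM1 and ITGB2 were again the 2 of 10 with an unadjusted p under 0.05 in limma, against 13.8% of all genes. Without siR-GAL3 replicate 2 they were also the 2 of 10, against 16.3%. Neither fit draws on that library for the group difference, so the 2 results are not independent.

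Among the 18 other integrin chains, 13 had a mean under 1. ITGB4, the laminin receptor chain that pairs with ITGA6, was the most abundant of them and was 9.60, 11.04 and 11.3 across the siR-Con libraries and 8.98, 7.86 and 7.70 across the siR-GAL3 libraries. All siR-GAL3 values lay below the controls, with a log2 fold change of -0.34 (standard error 0.09, limma, unadjusted p = 0.00687, adjusted p = 0.333), and unlike ITGAV the lowest value was not that of siR-GAL3 replicate 2. The 5 rows tested were ITGAL, ITGAM, ITGAD, ITGAX and ITGB4, with 3 higher and 2 lower. Of these, 3 and 1 had an unadjusted p under 0.05 in limma (4.41% and 4.25% of all genes). The median log2 fold change was 0.36, or 0.14 over 4 rows when ITGAD is left out.

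Matrix ligands of these receptors were mostly lower. Of 29 ligand genes listed, 18 were tested, 2 higher and 16 lower. Of these, 1 and 6 had an unadjusted p under 0.05 in limma (4.41% and 4.25% of all genes), and the median log2 fold change was -0.23. Without siR-GAL3 replicate 2 the median was -0.13, with 15 of 19 lower. SPP1, osteopontin, which binds ITGAV receptors and is made by activated microglia, was the most abundant, at 61.7, 44.4 and 36.0 in siR-Con and 88.6, 92.9 and 104.5 in siR-GAL3, a log2 fold change of 1.03. LAMA2, a laminin chain, was 1.59 ± 0.171 in siR-Con and 0.964 ± 0.171 in siR-GAL3 (SD, n = 3 each), which is -0.40 on the log2 scale (limma, unadjusted p = 0.00248, adjusted p = 0.232), and POSTN, periostin, had -0.23. The 6 laminin chains tested, a grouping made after their values were seen, were all lower, between -0.72 (LAMC1) and -0.20 (LAMB2). They were lower without siR-GAL3 replicate 2 as well, but by less, between -0.33 and -0.11, and LAMC1 in that library was at 43.2% of the other siR-GAL3 libraries. Markers of fibroblasts and mural cells moved the same way, with 4 of the 5 tested lower. Of these, 3 had an unadjusted p under 0.05 in limma (4.25% of all genes). The summed value of the markers was 43.2 to 50.8 in siR-Con and 33.2 to 38.2 in siR-GAL3. The collagens COL3A1 and COL1A1 and the receptor PDGFRB had log2 fold changes of -0.50, -0.42 and -0.30, and RGS5, KCNJ8, ABCC9 and ACTA2 had means under 0.1. Of the 8 astrocyte markers, 6 were lower, 3 of them at an unadjusted p under 0.05 in limma (4.25% of all genes). The 8 markers summed to 869.8 to 1012 in siR-Con and 751.7 to 813.2 in siR-GAL3. GFAP made up most of each sum, at 571.1 to 757.7 in siR-Con and 514.8 to 533.4 in siR-GAL3, so the sums describe mainly that gene. The median log2 fold change of the astrocyte markers was -0.15, with GFAP at -0.31, SLC1A2 at -0.45 and ALDH1L1 at -0.26. The part of these cell types in the ligand and integrin values was not tested. Oligodendrocyte markers (6 of 8 higher) and neuronal markers (3 of 5 higher) included none with an unadjusted p under 0.05, and their median log2 fold changes were 0.12 and 0.04.

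Inside the cell, integrins are switched on by talin and kindlin and coupled to actin through ILK, parvins and alpha-actinin. Of 36 such genes listed, 31 were tested, 9 higher and 22 lower. Of these, 4 and 3 had an unadjusted p under 0.05 in limma (4.41% and 4.25% of all genes), and the median log2 fold change was -0.11. This median rested on siR-GAL3 replicate 2, without which it was 0.0031, with 17 of 32 genes higher and 15 lower. It was -0.0012 when blocked on the library set, a fit in which that library likewise adds nothing to the group difference. FERMT3, the kindlin of blood cells and microglia, was 1.35, 1.95 and 1.53 in siR-Con and 2.55, 2.26 and 2.21 in siR-GAL3, with no overlap and a log2 fold change of 0.36 (limma, unadjusted p = 0.00799). PARVG, the leukocyte parvin, had 0.32, and ACTN1, a widely expressed alpha-actinin, had -0.23. RAP1B, a small GTPase that activates integrins, was the most abundant at 26.2 to 31.9, with -0.08. siR-GAL3 replicate 2 was the lowest library for 19 of the 31 genes and for 11 of the 18 ligands. Of 16 other leukocyte adhesion molecules, 7 were tested, 4 higher and 3 lower. Of these, 2 and 1 had an unadjusted p under 0.05 in limma (4.41% and 4.25% of all genes). The median log2 fold change was 0.10, or 0.0028 without siR-GAL3 replicate 3 and 0.05 without siR-GAL3 replicate 2. SELPLG, a selectin ligand of leukocytes, was 0.916 ± 0.0336 and 1.29 ± 0.0123 (SD, n = 3 each), or 0.26 on the log2 scale. CD99, which serves leukocyte passage, had 0.41 and the junction molecule JAM2 -0.23, and CD44, the hyaluronan receptor and the most abundant of the list, was 16.5 to 20.4 in siR-Con and 14.9 to 17.1 in siR-GAL3.

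**Figure D5:**
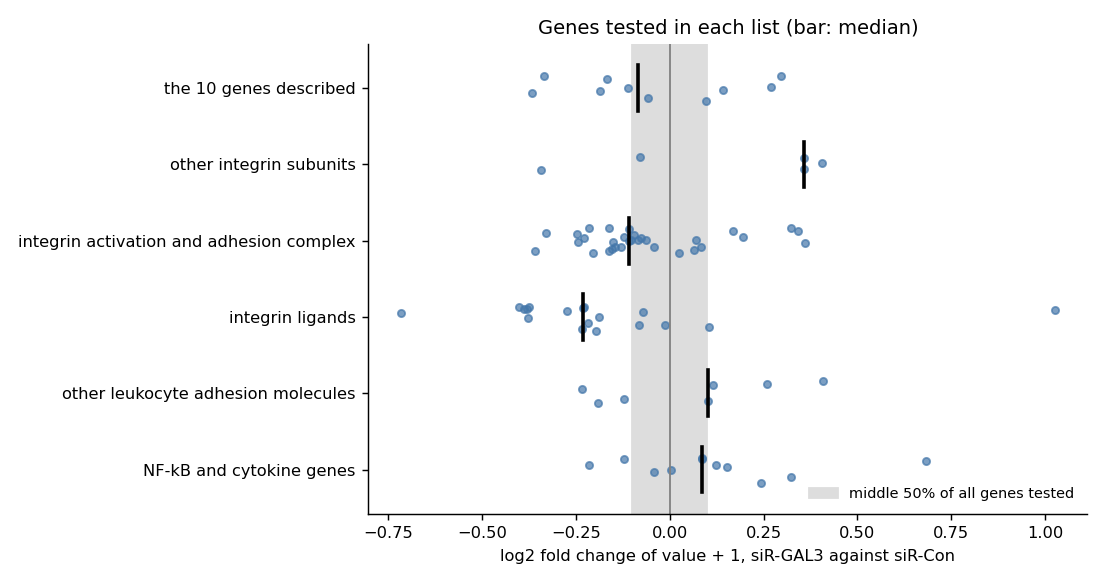
Log2 fold change of value + 1 for every gene tested in each list, 1 point per gene with the vertical position jittered, a black bar at the median and the middle 50% of all genes tested in grey. The medians are -0.08 for the 10 genes described, -0.23 for the integrin ligands and -0.11 for the integrin activation and adhesion complex, which becomes 0.0031 without siR-GAL3 replicate 2.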

How the data were processed

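The paper and its supplement state that reads were mapped with STAR, counted per gene with HTSeq 0.5.4p3 and turned into FPKM, after which batch effects were removed, values standardized and differences within groups corrected with unnamed tools. The deposited matrix held these corrected values on a linear scale, with 2376 of 17648 rows below 0 in some library and none of the 10 genes among them, and an SD describes what that correction left of the spread. Their genome build is not given in the sources used here, and the labels give ribosomal RNA depletion where the supplement gives poly-A selection. Negative values became 0 before log2(value + 1), and limma 3.58.1 (R 4.3.3, trend on intensity; tested on simulated data) was run on every gene whose mean reached 1. On this scale a fold change understates the change of low genes. Single genes were also compared by exact permutation in Python 3.11.15. Promoter windows and names came from RefSeq (GRCr8), in which all 10 symbols matched. Rows sharing all 6 values with another numbered 432, none of the 10 genes among them. The named genes are the 10, LGALS3, the partner chains ITGAM, ITGAL, ITGAX, ITGA4 and ITGB3, and in each list the 3 smallest p and the highest mean, of which some are not reported here. The members, lists and alternatives were chosen with earlier results of these data known, and the gamma-activated sequence after the promoters were seen. Alternatives were a pseudocount of 0.1, other filters and scalings, no trend, replicate or library set blocks, no logarithm, genes without values below 0, and each library left out.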

Additional observations from a re-analysis of the deposited data

How the results depend on the processing

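The direction of each of the 10 genes and the absence of adjusted p-values under 0.05 among them held in every alternative run in which they could be tested. The number of all genes with an unadjusted p under 0.05 in limma was 736, and it moved to 1623 with no filter, 121 with a mean of at least 10, 1174 when blocked on the library set, and between 362 and 1381 with each library left out. The number among the 10 genes was 2, and it was 1 with median-ratio scaling (VCAM1), 1 with the replicate block (VCAM1), 0 with a mean of at least 10, where only ITGB1 could be tested, and between 0 and 3 with each library left out. The number without overlap between groups was 3, and it was 0 with a mean of at least 10 and between 4 and 7 with each library left out, since 2 libraries against 3 overlap less easily. The share of all genes without overlap in those fits is not given here. The counts of 4 to 7 are therefore not read as a result about the 10 genes. Same-numbered libraries did not deviate together (correlations of deviations of -0.17, -0.07 and 0.04 for replicates 1, 2 and 3), and the replicate numbers were not taken as pairs, although replicates 1 and 3 each share a library set across the groups. The replicate block gave 543 genes in all with an unadjusted p under 0.05. The median log2 fold change of the 10 genes, -0.08, was -0.03 without siR-GAL3 replicate 2, -0.04 with the library set block and -0.13 without siR-GAL3 replicate 1. The number of all genes with an adjusted p under 0.05 was 0, and it was 106 with the library set block, 6 with the replicate block and between 0 and 167 with each library left out. ICAM1, with a mean close to the filter, and the low chains ITGA5 and ITGB5 have fold changes that log2(value + 1) compresses most. Depth is unknown, so no counting error bounds these values. The cause of the differing counts was not tested.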
